A study of Homo sapiens with 13 samples.

Results

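Chromosome 10 of T98G cells, an established human glioblastoma line, carried 2684 of the 129347 open chromatin peaks in the deposited ATAC-seq table. The members are the peaks that the table places on chromosome 10, with no other condition. Of these, 544 were promoter peaks, which cover an annotated transcription start site, and 1727 were distal peaks, which lie more than 2 kb from any start site and touch no CpG island. The other 413 peaks fell in neither class. ATAC-seq inserts sequencing adapters with the Tn5 transposase, so reads pile up where DNA is accessible. The 3 G1 libraries came from cells kept without serum for 72 h. The 3 M-phase libraries came from cells kept without serum for 48 h and then released for 36 h into serum with nocodazole, which blocks spindle assembly. Each M-phase library stands for a replicate that has a pair of sequencing runs, 6 deposited samples in all. Whether and how the runs were joined is not given in the sources used here. Both phases are of the same cell line, and the labels name no other agent. The labels give each M-phase replicate a HiSeq and a NextSeq run, while the titles of the G1 samples name no instrument. Phase, serum and any difference of sequencing run or instrument therefore cannot be told apart. The labels do not say whether the replicates were separate cultures, so p-values measure the spread between these libraries only.

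Loss of a copy of chromosome 10, whole or in part, is among the most common chromosome changes in glioblastoma. Among its genes is MGMT, which encodes the repair enzyme that removes alkyl groups from guanine. Promoters of active genes are usually open in most cell types, while distal peaks are often enhancers that differ between cell types. The table holds no measure of DNA copies, so that copy number and accessibility cannot be told apart in any density or count given here.

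The libraries held 4333935 to 5365024 reads in peaks in G1 and 12470564 to 14202790 in M-phase. The deposited values are these counts scaled down to the smallest library and are called scaled counts here. Glial, neural stem and mesenchymal marker genes had a promoter peak in 4 of 7 cases. The mean scaled counts were 616 for VIM, 181 for CD44, 96.1 for OLIG2 and 9.67 for SOX2. NES, GFAP and S100B had no promoter peak. Of 9 markers of other cell types, PTPRC, CD3E, PECAM1, CDH5 and ALB had no promoter peak, whereas SNAP25 (425), KRT8 (103), EPCAM (99.2) and SYP (67.8) had one. An open promoter does not show that the gene is expressed.

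Examples of the DNA behind the results are shown first. A distal peak among the largest rises and the 2 largest falls in M-phase are given by their central 200 bases on the plus strand of GRCh37, with matches to any searched motif in capitals. The first, in an intron of DNMBP (chr10:101766404-101766603), holds no match. The second lies in an intron of PRKG1 (chr10:53639107-53639306), and its capitals mark a pair of AP-1 matches (TGANTCA). The third lies between genes, with MBL2 as the nearest coding gene (chr10:54624484-54624683), and holds no match.
DNMBP intron, higher in M-phase: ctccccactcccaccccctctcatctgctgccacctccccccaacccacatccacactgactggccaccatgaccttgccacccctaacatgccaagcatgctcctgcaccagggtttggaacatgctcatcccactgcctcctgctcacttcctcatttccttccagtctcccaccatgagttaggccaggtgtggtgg
PRKG1 intron, lower in M-phase: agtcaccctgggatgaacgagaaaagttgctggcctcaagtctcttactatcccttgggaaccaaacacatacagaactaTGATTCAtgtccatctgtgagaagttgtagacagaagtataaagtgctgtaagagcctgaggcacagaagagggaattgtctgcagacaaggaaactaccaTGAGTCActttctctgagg
MBL2 region, lower in M-phase: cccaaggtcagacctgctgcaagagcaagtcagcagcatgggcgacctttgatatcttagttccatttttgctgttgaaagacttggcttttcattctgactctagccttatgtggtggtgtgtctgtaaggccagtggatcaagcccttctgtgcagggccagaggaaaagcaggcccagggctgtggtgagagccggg
For the promoters, the 250 bases before the RefSeq start of VIM are shown, the gene of the largest promoter rise, in GRCh38.p14 (chr10:17227991-17228240, plus strand). The capitals mark an SP1 match (GGGCGG, searched on both strands with CCAAT and the ETS site CCGGAAG), which 42.6% of 35116 RefSeq promoters hold in the same stretch.
VIM promoter: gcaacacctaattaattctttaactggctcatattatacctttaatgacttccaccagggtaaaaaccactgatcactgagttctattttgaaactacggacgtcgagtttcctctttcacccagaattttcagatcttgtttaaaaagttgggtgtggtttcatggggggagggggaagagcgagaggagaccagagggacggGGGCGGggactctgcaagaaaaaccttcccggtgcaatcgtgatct

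Chromosome 10 was sparsely covered with peaks, and the deficit was deeper among distal than promoter peaks. It had 4.14 promoter peaks per Mb of sequence without N, against 5.92 over the other 21 autosomes pooled, a ratio of 0.7. Distal peaks stood at 13.2 per Mb against 35.6, a ratio of 0.369. Its distal density was the 4th lowest of the 22 autosomes and its promoter density the 5th lowest. Distal densities of the others ran from 6.04 to 88.3 per Mb, so chromosome 10 lay inside their range. Peaks were called on merged replicates and the G1 and M-phase peaks then joined, so a density has no replicate and was not tested.

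Chromosomes 11 and 12 give the closest match in size, with 131.1 and 130.5 Mb of sequence against 131.3 Mb on chromosome 10. They held 6899 and 4377 peaks. Chromosome 9, with 120.1 Mb of sequence, was close to chromosome 10, with 2917 peaks, 14.8 distal peaks per Mb and 2.89 distal peaks for each promoter peak. The number of distal peaks for each promoter peak was 3.18 on chromosome 10, with a median of 4.92 over the others. The gap was not limited to weak peaks. Distal peaks whose scaled count averaged 50 or more numbered 1.05 per Mb on chromosome 10 and a median of 2.41 per Mb on the others, and chromosome 10 was again 4th from the bottom. The share of genes with an open start site was closer to that of the other autosomes. Of 742 protein-coding genes on chromosome 10, 484 (65.2%) had a start site in a peak, against 67.5% of those on the other autosomes.

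**Figure D1:**
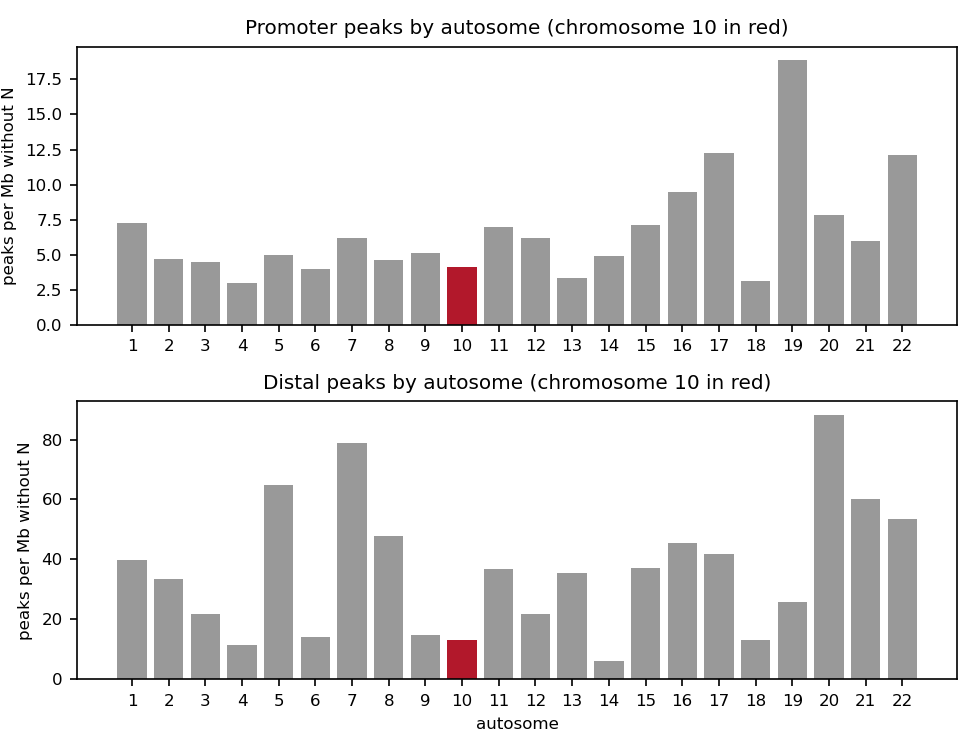
Promoter peaks (top) and distal peaks (bottom) per Mb of sequence without N on each of the 22 autosomes, with chromosome 10 in red. Chromosome 10 stands at 4.14 promoter and 13.2 distal peaks per Mb, 5th and 4th from the bottom.

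Peak strength differed by class. Distal peaks of chromosome 10 had a median mean scaled count of 10.8, the 2nd highest of the 22 autosomes, against 9.05 over all distal peaks of the others, although per kb of peak width the G1 ratio to the others was 0.993. They were also wider (median 248 against 217 bp) and richer in G and C (51.7% against 48.5%). Promoter peaks showed the opposite order, with a median of 129 on chromosome 10, the 4th lowest, and 146 on the others, although their median width of 1234.5 bp exceeded that of every other autosome. A CpG island was touched by 85.8% of the promoter peaks of chromosome 10 and by 77% of those elsewhere. Distal peaks lay in introns in 55.4% of cases and between genes in 41.3%, close to the 55.5% and 41.1% of the other autosomes.

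Along the chromosome, distal peaks were scarce nearly everywhere. In 5 Mb windows, 26 of the 27 windows of chromosome 10 with at least 1 Mb of sequence fell below the median of 533 windows of the other autosomes (32 distal peaks per Mb), and 21 fell below their lower quartile (15.4 per Mb). The exception was window 27, from 130 to 135 Mb near the end of the long arm, with 214 distal peaks or 43.7 per Mb. MGMT lies in it. Next came window 1, the 5 Mb at the tip of the short arm, with 104 distal peaks (21.1 per Mb), and window 26, from 125 to 130 Mb, with 101 (21 per Mb). The thinnest were window 12, from 55 to 60 Mb, with 25 distal peaks (5 per Mb), window 14, from 65 to 70 Mb, with 26 (5.2 per Mb), and window 11, from 50 to 55 Mb, with 35 (7.14 per Mb).

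Promoter peaks gave a different map. Window 21, from 100 to 105 Mb, held 56 promoter peaks (11.2 per Mb) and start sites of 72 coding genes. Window 15, from 70 to 75 Mb, held 41 (8.2 per Mb) with 56 coding genes, and window 20, from 95 to 100 Mb, held 34 (6.8 per Mb) with 58. Window 12 had a single promoter peak, that of ZWINT, and 2 coding genes with a start site in it. Windows 14 and 22, from 65 to 70 and from 105 to 110 Mb, followed with 11 and 13 promoter peaks (2.2 and 2.6 per Mb). The median window of chromosome 10 held 3.6 promoter peaks per Mb, against 4.6 elsewhere, and 20 of 27 windows lay below that value. Window 27, the richest in distal peaks, had only 15 promoter peaks (3.06 per Mb).

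**Figure D2:**
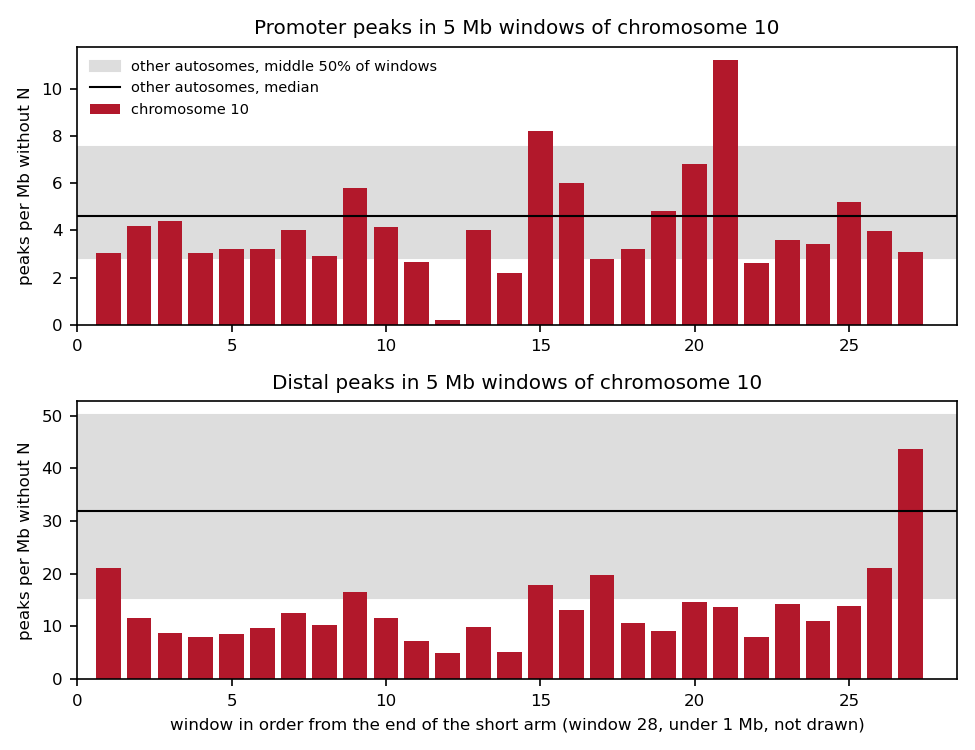
Promoter peaks (top) and distal peaks (bottom) per Mb in the 5 Mb windows of chromosome 10, in order from the end of the short arm. The line and the grey band are the median and the interquartile range of the windows of the other autosomes. Distal bars lie below the line in every window but window 27, at 43.7 per Mb.

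Counts per library showed how the sparse windows translate into signal. In window 27, the distal peaks together held scaled counts of 2704, 3358 and 2982 in G1 and 2755, 2918 and 3008 in M-phase. The phases overlapped there. In window 12 the distal peaks held 412, 377 and 537 in G1 and 276, 277 and 318 in M-phase, with no overlap. In the promoter-rich window 21, promoter peaks held 6454, 5868 and 7136 in G1 and 11532, 12570 and 12755 in M-phase, again with no overlap.

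Per peak, promoter accessibility of chromosome 10 drew closer to that of the other autosomes in M-phase. The median promoter peak of chromosome 10 had scaled counts of 95.9, 87.5 and 112 in the G1 libraries and 147, 155 and 169 in the M-phase libraries. On the other autosomes the values were 121 ± 13.2 (SD, n = 3) in G1 and 152, 164 and 169 in M-phase. The ratio of chromosome 10 to the others was therefore 0.811 ± 0.017 in G1 and 0.969 ± 0.026 in M-phase (SD, n = 3). The ratios did not overlap between phases, with p = 0.1 by a two-sided exact permutation test, which cannot go lower with 3 against 3 libraries (0.133 adjusted over the 4 ratios compared). With means in place of medians the ratios were 0.749 ± 0.005 and 0.85 ± 0.009 (SD, n = 3).

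Distal peaks did not show this in their medians. The median distal peak of chromosome 10 had 9.9, 10.2 and 11 in G1 and 9.5, 9.5 and 10.1 in M-phase. Its ratio to the other autosomes was 1.14 ± 0.073 in G1 and 1.1 ± 0.059 in M-phase (SD, n = 3, exact permutation p = 0.6). The ratios of the means, which weigh strong peaks more, were 1.06 ± 0.016 and 1.14 ± 0.029 and did not overlap (exact permutation p = 0.1).

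The share of all autosomal scaled counts that fell on chromosome 10 rose in M-phase. Over all its peaks the share was 2.33, 2.3 and 2.33% in G1 and 2.67, 2.66 and 2.7% in M-phase, so that every M-phase library lay above every G1 library. The log2 change was 0.21 (SE 0.0151, limma over 22 autosomes, adjusted p = 9.19e-05). This exceeded the change of promoter or distal peaks taken alone, given below. Promoter peaks made up 20.3% of the peaks of chromosome 10 and 12.1% of those of the other autosomes. The part of this mix of classes in the change over all peaks was not tested. A two-sided exact permutation test gave p = 0.1 for all, promoter and distal peaks alike, the lowest possible with 3 against 3 libraries. The share rose with an adjusted p under 0.05 on 10 of the 22 autosomes (45.5%), so the rise set chromosome 10 in the upper group without setting it alone. Chromosomes 6 and 20 also rose, with adjusted p of 0.143 and 0.0661 (limma). The change of chromosome 10 ranked 7th. Promoter peaks of chromosome 10 held 2.64, 2.62 and 2.61% of the promoter counts in G1 and 3, 2.94 and 2.97% in M-phase, a log2 change of 0.18 (SE 0.0164, adjusted p = 0.000111). The promoter share also rose past that threshold on 45.5% of autosomes. Distal peaks held 1.95, 1.95 and 2% in G1 and 2.07, 2.12 and 2.17% in M-phase, a log2 change of 0.11 (SE 0.0256, adjusted p = 0.0132). The distal share rose past the same threshold on 40.9% of autosomes. Without M-phase replicate 3 the distal value was 0.09 with an adjusted p of 0.0556.

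The change of a chromosome's share was related to its size. Across the 22 autosomes Pearson's r between length and log2 change was -0.892 for promoter peaks (Spearman's rho -0.895) and -0.881 for distal peaks (rho -0.894), given as a description since all autosomes share the same 6 libraries and their shares sum to a whole. The median G and C content of the promoter peaks also moved with the promoter change (r 0.599), as did that of distal peaks with the distal change (r 0.698). The part of base composition in these values was not tested.

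Chromosome 10 was also set against chromosomes 9, 11 and 12, the nearest to it in length. The promoter counts of chromosome 10 relative to chromosome 11 rose by a log2 of 0.20 between the phases, relative to chromosome 12 by 0.11 and relative to chromosome 9 by 0.14, with no overlap between libraries in any of them. For distal peaks the gain was 0.13 against chromosome 11 and 0.18 against chromosome 9, both without overlap. Against chromosome 12 it was 0.01 and the libraries overlapped (exact permutation p = 0.7). The exact permutation p was 0.1 for each of the 5 pairs without overlap, the smallest possible, and 0.12 when adjusted over the 6 comparisons.

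**Figure D3:**
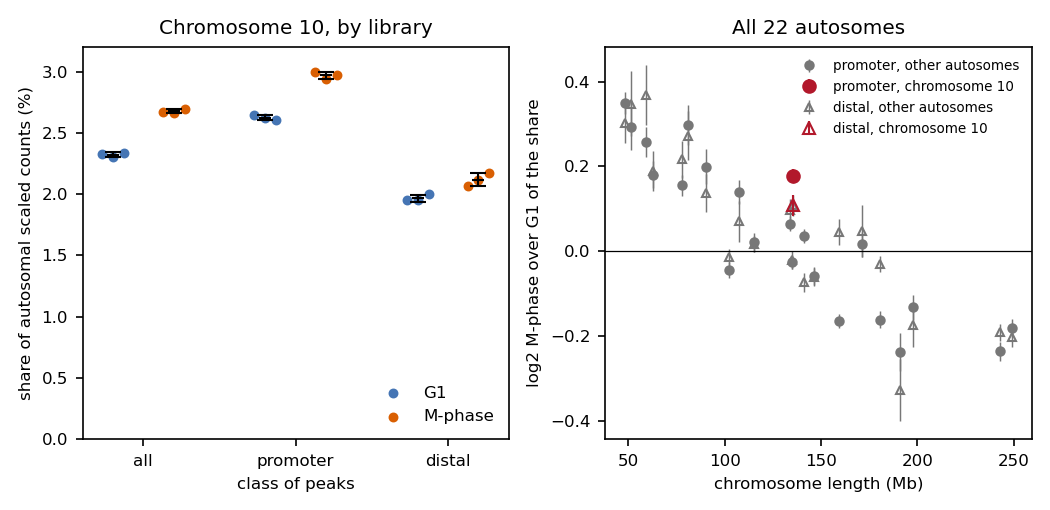
Left, share of autosomal scaled counts on chromosome 10 in each library for all, promoter and distal peaks, with mean and SD (n = 3 per phase). Right, log2 change of the share (± SE) against chromosome length for the 22 autosomes. Chromosome 10 in red lies at 0.18 for promoter and 0.11 for distal peaks.

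Peak by peak, 1704 of the 2684 peaks of chromosome 10 passed the filter on low values, 527 of them promoter and 948 distal. In M-phase, 472 peaks (27.7%) were higher and 207 (12.1%) lower (limma, adjusted p under 0.05). Of all tested peaks of the table, 14.3% were higher and 13.1% lower, with a smaller portion of promoter peaks among them. Promoter peaks carried the rises, with 317 higher (60.2%) and 15 lower (2.85%), beside 43.2% and 5.94% of all promoter peaks. The share of promoter peaks called higher ran from 29.7 to 58.2% on the other autosomes, so that chromosome 10 had the highest of the 22. Of the distal peaks, 118 (12.4%) were higher and 170 (17.9%) lower, beside 5.86% and 15.9% of all distal peaks. Its share of higher distal peaks ranked 3rd, after a top value of 13.6% on chromosome 19. Without M-phase replicate 1 the lower promoter peaks numbered 8.

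Stronger peaks are called more readily, and chromosome 10 differs in peak strength, so the shares were also read at like levels. A level is the mean over all 6 libraries. It includes the M-phase counts, so peaks were not matched on their G1 level. Among promoter peaks averaging 100 to 200 scaled counts, 139 of 202 on chromosome 10 were higher (68.8%), compared with 44.1% elsewhere. From 200 upward the shares were 88% and 71.5%. Among distal peaks from 10 to 50, 10.2% were higher on chromosome 10 and 4.12% elsewhere, and 17.2% and 14.2% were lower. From 50 upward the order of the lower calls was the opposite, with 14.5% on chromosome 10 and 24.5% elsewhere, while 27.5% and 17.2% were higher. Median log2 changes were 0.66 for the promoter peaks of chromosome 10 and 0.38 for those of the other autosomes, and -0.03 and -0.06 for distal peaks.

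The direction of these counts rests on the scaling. The authors' scaling leaves the M-phase libraries with more signal in peaks in total. With every library set to the same total in peaks, the median of all tested peaks moved by -0.26 on the log2 scale, and chromosome 10 had 318 peaks higher and 378 lower. Promoter peaks of chromosome 10 still leaned to M-phase under that scaling, with 225 higher and 49 lower, while its distal peaks stood at 73 and 280. The shares of all peaks of the table under that scaling are not given here. Nothing is therefore read from these counts about chromosome 10 against other chromosomes. Shares of the autosomal counts do not depend on the scaling.

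By window, the promoter share rose in M-phase over most of the chromosome. The promoter counts of each window were divided by those of all autosomes, so that these changes are relative to the genome. Of 27 windows with at least 5 promoter peaks, 15 were higher and 2 lower, where 26.7% of the 531 tested windows of all autosomes were higher and 45.2% lower. The largest rise was in window 7, from 30 to 35 Mb (log2 0.55, SE 0.064, adjusted p = 1.28e-06), where ZEB1, ITGB1 and NRP1 lie. Its promoter counts were 2406, 2012 and 2326 in G1 and 4836, 5130 and 5334 in M-phase. Windows 4, 1 and 18, from 15, 0 and 85 Mb, followed with 0.43, 0.39 and 0.33. Window 8, from 35 to 40 Mb and next to the centromere, went the other way (-0.52, SE 0.065, adjusted p = 2.3e-06). It held 12 promoter peaks, among them that of SEPTIN7P9, whose count is uncertain for a reason given below. The promoter counts of window 8, 2002, 1882 and 2663 in G1 and 2211, 2335 and 2425 in M-phase, overlapped before division, while most windows gained counts. Window 17, from 80 to 85 Mb, was the other one lower (-0.15, adjusted p = 0.0483). With the scaled sums left undivided, 26 of the 27 windows were higher and 0 lower. The shares of all autosomal windows with undivided sums, promoter or distal, are not given here. Without G1 replicate 2 or any M-phase replicate, 1 window was lower.

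Distal peaks gave a broken pattern. Of 28 windows tested, 10 were higher and 4 lower, beside 20.8% and 34.4% of the 567 distal windows of all autosomes. Windows 16 and 1, from 75 and 0 Mb, rose by 0.60 (SE 0.085, adjusted p = 7.25e-05) and 0.59 (SE 0.073, adjusted p = 3.09e-05). Windows 14 and 3, from 65 and 10 Mb, rose by 0.51 and 0.38. The falls lay in window 11 (-0.56, adjusted p = 0.00206), window 12 (-0.50, adjusted p = 0.00484), window 18 (-0.43, adjusted p = 0.0132) and window 9 (-0.26, adjusted p = 0.0365). Window 18 thus rose in its promoter peaks and fell in its distal peaks. Without M-phase replicate 1, 2 or 3 the number of higher distal windows was 6, 5 and 5, and undivided sums gave 2 higher and 3 lower. Without M-phase replicate 3, 2 distal windows were lower.

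**Figure D4:**
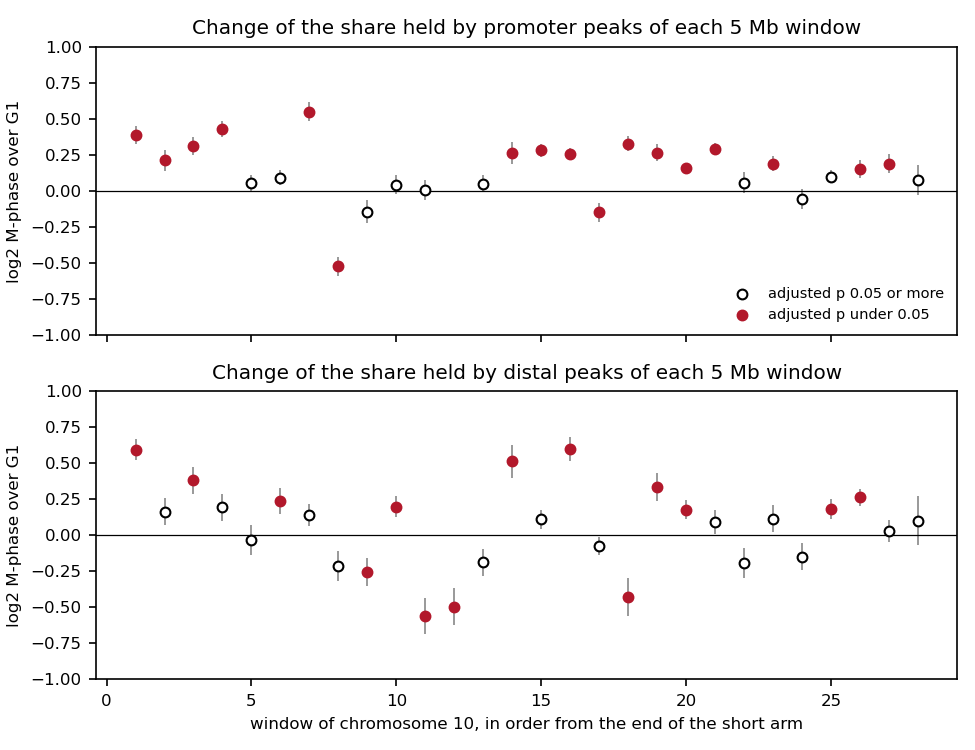
Log2 change from G1 to M-phase (± SE) of the autosomal share held by promoter peaks (top) and distal peaks (bottom) of each 5 Mb window of chromosome 10. Filled points passed an adjusted p of 0.05. Promoter points are above 0 in 23 of 27 windows and distal points in 18 of 28.

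Genes of several groups were read against the chromosome as a whole, where 60.2% of the tested promoter peaks, and 68.1% of those averaging 50 or more, were higher in M-phase, with a median log2 change of 0.66. Their counts lay near these shares or rest on few genes, and nothing is read from them about a group. Among 9 glioma-associated genes, 5 had a promoter peak, and 3 of the 5 were higher, close to the share on the whole chromosome. The peak of KLF6 (chr10:3826872-3828301), a zinc finger factor of early growth responses, had scaled counts of 181, 118 and 198 in G1 and 457, 575 and 631 in M-phase. It was 1.71 higher on the log2 scale (SE 0.18, limma, adjusted p = 7.95e-13). SUFU, a negative regulator of Hedgehog signaling, shared its peak with ACTR1A and rose by 1.40, and ANXA7, an annexin gene, by 1.36. MXI1, which encodes a MYC antagonist, had 277, 241 and 372 in G1 and 356, 408 and 427 in M-phase, with overlap and an adjusted p of 0.0544, and passed without G1 replicate 3. The MGMT peak (chr10:131265253-131265489) was short and weak, with 21.9, 7.8 and 36 in G1 and 16.9, 26.4 and 23.6 in M-phase (log2 0.13, adjusted p = 0.804). LGI1, DMBT1, FGFR2 and RET had no peak over a start site.

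All 11 cell division genes had a promoter peak, and 8 rose, 1 fell and 2 passed in neither direction, with a median log2 change of 0.80. The chromosome's own promoter values were 60.2% higher, or 68.1% from an average of 50 upward, and a median of 0.66. KIF11, the motor that separates spindle poles, shared its peak with IDE and had 98.4, 107 and 103 in G1 and 274, 298 and 319 in M-phase (log2 1.46). The peak of CDK1, the mitotic kinase, rose from 145, 98.4 and 122 to 190, 223 and 238 (log2 0.80, adjusted p = 0.000759). SMC3 of the cohesin ring rose by 0.95, CEP55 of abscission by 0.91, MASTL, a kinase of mitotic entry whose peak also serves YME1L1, by 0.89 and the replication factor MCM10 by 0.86. MKI67, the gene of the Ki-67 antigen, had 90.5, 88.3 and 99 in G1 and 113, 171 and 163 in M-phase (log2 0.62, adjusted p = 0.0159). Its call was lost without M-phase replicate 2 or 3 and with equal totals in peaks. KIF20B rose by 0.68 and lost the call without M-phase replicate 2 or with equal totals in peaks. ZWINT, a kinetochore gene, was lower (log2 -0.65, adjusted p = 0.0112), but its G1 counts of 189, 121 and 274 overlapped those of 108, 114 and 123 in M-phase, and the call was lost without G1 replicate 3 or M-phase replicate 1. BUB3 of the spindle checkpoint (0.44) and CCNJ (0.25) did not pass, though BUB3 did without G1 replicate 3.

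Of 8 growth response, SRF and YAP target genes, 7 had a promoter peak and 6 of the 7 rose, beside the 60.2% of all tested promoter peaks of chromosome 10 and 43.2% of those in the table. DUSP5, a phosphatase of ERK, had 214, 152 and 253 in G1 and 551, 524 and 751 in M-phase (log2 1.53). VCL, the vinculin gene, had 187, 196 and 253 in G1 and 587, 614 and 624 in M-phase, also without overlap (adjusted p = 1.15e-11). DDIT4, MAP3K8 and CREM rose by 1.12, 1.07 and 0.85, and the CREM peak also covers a start site of CUL2. EGR2, an immediate early factor, gave 135, 129 and 126 in G1 and 124, 127 and 116 in M-phase (log2 -0.08, adjusted p = 0.806). ACTA2, smooth muscle actin, shared one peak with the death receptor gene FAS, and that peak rose by 0.93.

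The mesenchymal and adhesion genes all had a promoter peak, and 6 of 8 rose, beside 60.2% of all tested promoter peaks of chromosome 10 and 68.1% of those averaging 50 or more. Among the 6 is FAS, whose peak is the same as that counted above for ACTA2. VIM, the intermediate filament gene, had the largest promoter rise among strong peaks of the chromosome (chr10:17270148-17272436). Its counts were 215, 277 and 325 in G1 and 864, 934 and 1084 in M-phase (log2 1.80, SE 0.163, adjusted p = 1.44e-15). NRP1, PLAU, ZEB1 and ITGB1 rose by 1.33, 1.28, 1.27 and 1.23. ITGA8, an integrin gene, fell by 0.75 from low counts of 24.9, 35.9 and 33 in G1 to 14.4, 19 and 12.5 in M-phase (adjusted p = 0.0355), and lost the call without G1 replicate 2 or 3 or M-phase replicate 1 or 3. CXCL12, a chemokine gene, had a log2 change of -0.35 (adjusted p = 0.353).

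Chromatin regulators were higher in all 8 cases with a promoter peak, beside 60.2% of all tested promoter peaks of chromosome 10, and TET1 had none. For 4 of the 8 the call was lost when a single library was left out, and the same 4 lost it with equal totals in peaks. SIRT1, a deacetylase, rose by 1.09, and SUV39H2, a methyltransferase of histone H3 lysine 9, by 1.07. JMJD1C, ARID5B, KAT6B and BMI1 rose by 0.94, 0.74, 0.72 and 0.60. PCGF6 and PCGF5 of the Polycomb group were near the threshold, with log2 changes of 0.62 and 0.52 and adjusted p of 0.0369 and 0.0314. PCGF6 lost its call when any single library other than G1 replicate 3 was left out, PCGF5 without G1 replicate 2 or M-phase replicate 2 or 3, BMI1 without G1 replicate 2 or M-phase replicate 1, and ARID5B without M-phase replicate 3. Of 8 metabolic genes, 6 rose, beside the same 60.2%, or 68.1% from an average of 50 upward. PFKFB3, whose product makes an activator of glycolysis, rose by 1.23, IDI1 of sterol synthesis by 1.11, the desaturase SCD by 1.08 and PGAM1 by 1.03, GLUD1 by 0.71 and the hexokinase gene HK1 by 0.54, while PFKP (0.36) and GOT1 (0.24) did not pass. The peaks of IDI1, PGAM1 and GLUD1 also cover start sites of WDR37, RRP12 and SHLD2, in that order. HK1 lost its call without G1 replicate 1 or M-phase replicate 2 or 3, and with equal totals in peaks.

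**Figure D5:**
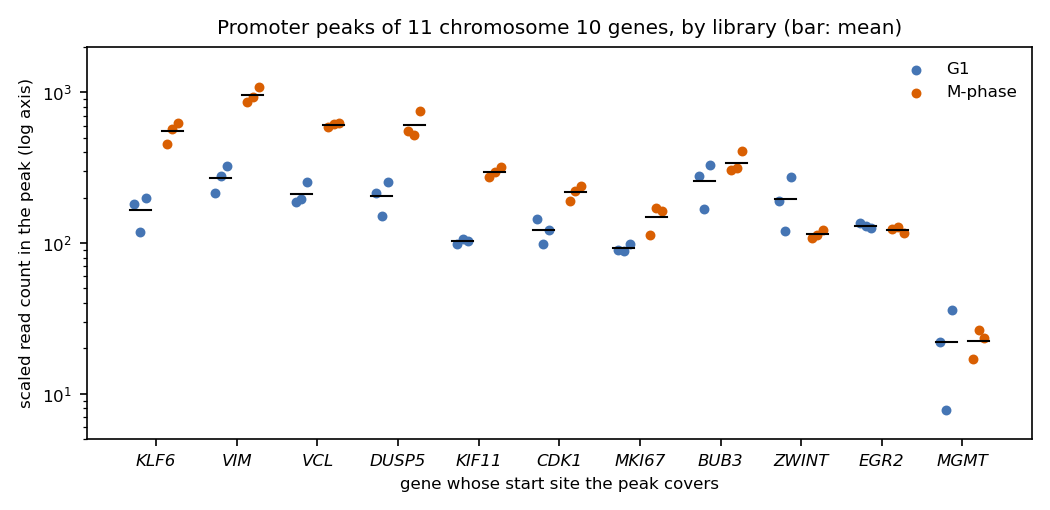
Scaled read counts in the promoter peaks of 11 chromosome 10 genes in each G1 and M-phase library, on a log axis, with the mean as a bar. KLF6 and VIM are separated between phases, while EGR2 and MGMT overlap.

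Of the 445 tested promoter peaks that averaged 50 or more, 296 (66.5%) were higher and 6 (1.35%) lower with an adjusted p under 0.05 and no overlap between phases. Among all such peaks of the table the shares were 50.8% and 4.21%. After VIM, the largest rises were BAG3, a co-chaperone gene (1.78), VPS26A of the retromer (1.78) and KLF6. BAG3 had 149, 118 and 90 in G1 and 397, 497 and 375 in M-phase. The largest falls were at SEPTIN7P9, a pseudogene (-1.07), PYROXD2 (-0.99), JAKMIP3 (-0.80) and ZNF33B (-0.55). JAKMIP3 lost the call without G1 or M-phase replicate 1, and ZNF33B without G1 replicate 3 or M-phase replicate 1 or 2. SEPTIN7P9 had 162, 161 and 166 in G1 and 77.4, 63.9 and 80.4 in M-phase. Septin pseudogenes and the ZNF33 pair have near-identical copies, and the mapping kept 1 of up to 3 locations of a read, so their counts are uncertain. The strongest promoter peaks were those of TRIM8 (G1 458 ± 36.1, M-phase 1175 ± 34.1, SD, n = 3), VIM and the pair SUFU and ACTR1A.

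Under the same rule 37 (26.8%) of 138 distal peaks were higher and 20 (14.5%) lower, beside 16.4% and 23% over the whole table. The largest rise was in an intron of KCNMA1, a potassium channel gene, where a peak had 17.9, 53.9 and 48 in G1 and 145, 157 and 134 in M-phase (log2 1.77, SE 0.237, adjusted p = 3.03e-09). Another peak of the same gene, 33 kb from its start, rose by 1.56, a peak in an intron of DNMBP by 1.69, and one 66.9 kb from KLF6 by 1.64. The PRKG1 intron peak (chr10:53638973-53639440) fell most, from 81.5, 75.8 and 135 to 14.8, 7.4 and 34.6 (log2 -2.06, SE 0.269, adjusted p = 1.65e-09). The peak 92 kb from MBL2 fell from 113 ± 27.3 to 30.2 ± 5.43 (log2 -1.65), and peaks in introns of ARHGAP22 and VTI1A had log2 changes of -1.53 and -1.32. The strongest distal peaks lay in an intron of LINC00842 (G1 216 ± 40.8, M-phase 406 ± 31.7, SD, n = 3), 134 kb from GDF10 (137 ± 25.2 and 239 ± 19.9) and 271 kb from ANKRD30A (183 ± 47.4 and 165 ± 36.7). The region of LINC00842 and GDF10 holds large duplications and several assembly gaps, which makes these counts uncertain as well. Both peaks lie in window 10, from 45 to 50 Mb, whose distal sum has the same limit.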

How the data were processed

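ATAC-seq libraries of T98G cells (3 G1, 3 M-phase) were used. The chromatin fraction and input samples were not analysed here. As the study's methods state, the authors trimmed reads with cutadapt, mapped them to hg19 with Rbowtie (reads with up to 3 locations, 1 kept), removed mitochondrial reads and merged replicates before broad peak calling with macs2. The peaks of G1 and M-phase were then joined. Tool versions, and whether ends were shifted for Tn5, are not given in the sources used here. The deposited signal values are read counts per peak, which the authors scaled to the smallest library and gave to 0.1. The deposited table also holds a log2 comparison column and an SD column, which were not used. The number of unused per-sample columns was 0.

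Whole reads were recovered from the steps of the values: 100% of values were whole multiples within rounding. With limma 3.58.1 (R 4.3.3, trended variance), all 6 libraries were fitted as log2(scaled count + 8) for 73121 of 129347 peaks. A peak passed with the equivalent of at least 10 in a library of median total in peaks. This had to hold in at least 3 libraries, with a summed scaled count of at least 15. Benjamini-Hochberg adjustment was over all peaks that passed. The fold changes are of log2(scaled count + 8) and understate low peaks. Chromosome shares were fitted over 22 autosomes, and windows of 5 Mb with at least 5 peaks of a class as log2 shares of the class's autosomal sum, with limma over all such windows. The peak and window fits were also run on simulated data, while the share fits and the permutation tests were not. Start sites come from GENCODE 44 in its GRCh37 version, which has the hg19 assembly, and CpG islands were computed from the sequence (score 17 per CpG, at least 200 bp, 50% GC and an observed over expected ratio above 0.6). Promoter sequences are of RefSeq. edgeR 4.0.16 and DESeq2 1.42.0 on recovered reads, other scalings, filters and a pseudocount of 1, and each library left out were alternatives. Python 3.11.15, numpy 2.4.6, pandas 2.3.3 and matplotlib 3.10.9 were used for the rest.

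The members, gene lists and tests were chosen with earlier results of these data known. Genes were taken from lists of glioma, cell division, growth response, mesenchymal, chromatin and metabolic genes of chromosome 10, each by the strongest peak over a start site. Single peaks were named when they were among the 4 largest rises or falls of a class with a mean of at least 50, an adjusted p under 0.05 and no overlap, or the 3 strongest. Windows were named as the 3 with most and fewest peaks per Mb and the 4 largest changes in each direction. Some items are not reported here. The promoter sequence was limited to the gene of the largest rise, and its motifs were chosen after the values were seen.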

Additional observations from a re-analysis of the deposited data

How the results depend on the processing

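The number of promoter peaks of chromosome 10 called higher stayed within 1.5 times, and its share of autosomal counts rose, in every alternative run, whereas other counts moved. The number of lower peaks was 94 when at least 10 was required in every library and 378 with equal totals in peaks, and that of lower promoter peaks 9, 49 and, with TMM, 24. Higher distal peaks numbered 76 and 73 and lower distal peaks 73 and 280 under these 2 settings. edgeR and DESeq2 on recovered reads gave 454 and 448 higher and 200 and 191 lower peaks. Leaving out each library gave 8 to 14 lower promoter peaks, and a distal share change of 0.09 to 0.13, with 0.0898 (adjusted p = 0.0556) without M-phase replicate 3. Promoter windows numbered 26 higher and 0 lower with undivided sums. In windows of 10 Mb, 10 of 14 were higher and 0 lower. Without each library there were 1 to 3 lower promoter windows, 5 to 12 higher distal windows and 2 to 5 lower distal windows. Higher distal windows numbered 2 of 28 with undivided sums. Of 14 distal windows of 10 Mb, 5 were higher and 1 lower. Windows of 10 Mb are fewer, so their counts do not compare directly with those of 5 Mb. The distal density ratio was 0.41 among peaks that passed the filter. The promoter count ratio in G1 was 0.749 with means and 0.786 per kb of width, and in M-phase 0.85, 0.928 and, among peaks that passed the filter, 0.94. The distal ratio in G1 was 1.05 for peaks that passed the filter, 1.06 with means and 0.993 per kb, and in M-phase 1.03 per kb. The causes of these moves were not tested. The counts under the alternatives are of chromosome 10 alone, without the shares over the whole table. Same-numbered replicates did not deviate together over the tested peaks (r 0.00594, -0.0101 and 0.0284). A pairing by number was thus not detected, which does not exclude one. With the replicate number as a block, 1 promoter window was lower, the peaks numbered 492 higher and 214 lower, and no other count moved by over 1.5 times. Of 958 values of 64 tested named peaks under alternatives, 0 changed direction past the threshold, 42 lost the call and 10 gained it. Equal totals in peaks removed the calls of KIF20B, MKI67, BMI1, PCGF5, PCGF6, ARID5B and HK1, while 2 other named peaks gained one. TMM removed those of PCGF5, PCGF6 and HK1. With 3 libraries in a group, small changes are beyond the depth of weak peaks.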

Other observations

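The 214 distal peaks between 130 and 135 Mb, a stretch chosen after its count was seen, were spread unevenly. By 1 Mb step they numbered 34, 20, 49, 54 and 57, with median mean scaled counts of 9.69, 8.17, 7.78, 6.8 and 10.3. The step with MGMT, from 131 to 132 Mb, was thus the poorest of the 5. The short arm of chromosome 10 held 3.51 promoter and 11.3 distal peaks per Mb and the long arm 4.41 and 13.9. Median log2 changes in M-phase were 0.76 for promoter peaks of the short arm and 0.62 for those of the long arm, and 0.08 and -0.08 for distal peaks. No test of the arms was made.

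The central 200 bases of distal peaks of chromosome 10 held an AP-1 match (TGANTCA, either strand) in 20.6% of cases, against 13.3% on the other autosomes, the 4th highest share of 22 autosomes. Among distal peaks higher in M-phase the shares were 37.3% of 118 peaks on chromosome 10 and 34.2% elsewhere, and among lower ones 19.4% of 170 and 20.9%. RUNX (TGTGGTT) was matched in 15.3% of the lower and 5.08% of the higher distal peaks of chromosome 10, FOX (TGTTTAC) in 9.41% and 4.24%, TEAD (GGAATGT) in 8.24% and 3.39%, and C/EBP (TTGCNNAA) in 15.3% and 11.9%. On the other autosomes the lower and higher peaks stood at 12.5% and 4.7% for RUNX, 6.61% and 2.78% for FOX, 7.42% and 4.15% for TEAD, and 14.9% and 8.46% for C/EBP. The CTCF consensus was matched in 1.18% of the lower and 5.08% of the higher peaks, that is in 2 and 6 peaks, against 2.27% and 2.43% elsewhere. These are counts of letters in a fixed stretch, with no test.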
